A study of Oryza sativa with 9 samples.

Results

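Transcripts of 6 rice (Oryza sativa) genes were followed in developing seeds of 2 RBP-P mutant lines and of wild type. The genes encode the starch phosphorylases PHO1 and PHO2, the disproportionating enzymes DPE1 and DPE2, and the plastid envelope transporters BT1 and GPT1. They were picked by locus identifier from the 55986 loci of the deposited expression table. The names come from the locus list that defined the set. RefSeq holds entries named DPE1 and DPE2 at the matching place of chromosome 7, and the other 4 names could not be checked in this way. RBP-P binds RNA, among it the transcripts of storage proteins in rice seeds. The mutant line P1MH carries the RBP-P change G401S, the line P3MH carries A252T, and wild type (WT) carries neither. Both lines are amino acid mutants, so a transcript level cannot check their labels. Dehulled seeds were collected 10 to 14 days after flowering from plants kept at 27 °C under days of 12 h light and nights of 12 h, and total RNA of whole seeds was sequenced. Each genotype had 3 libraries, which the study calls biological repeats, giving 9 in all. The labels do not say how many plants or seeds went into a library. The p-values therefore measure the spread between these libraries.

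Starch is made inside plastids of the endosperm. In cereals most of its precursor, ADP-glucose, is formed in the cytosol and enters the plastid through BT1. GPT1 exchanges glucose 6-phosphate for phosphate across the same envelope. PHO1 is the plastidial α-glucan phosphorylase. It can lengthen or shorten short glucan chains, and in rice endosperm it binds DPE1, which moves glucan segments from one chain to another. Loss of PHO1 in rice gives shrunken grains, most of all at low temperature. PHO2 and DPE2 are the cytosolic counterparts. In leaves of Arabidopsis they act in turn on the maltose that leaves the plastid after starch breakdown, DPE2 first.

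All 6 genes were transcribed in each of the 9 libraries, at levels that spanned about 2 orders of magnitude. The unit of the deposited table is RPKM (reads per kilobase of exon, corrected for library size), so levels can be compared between genes. PHO1 was the highest, with a mean of 970 RPKM over all libraries, which placed it 45th of all loci. BT1 followed at 638 RPKM (55th) and GPT1 at 214 RPKM (165th). DPE2, PHO2 and DPE1 were far lower, at 21.2, 18.2 and 9.24 RPKM. Set among 28 starch genes, the 6 genes together with 22 other starch synthesis genes, PHO1 was 4th, BT1 7th and GPT1 10th. The other 3 ranked between 19th and 23rd. The 3 starch genes above PHO1 were BEI, a starch branching enzyme, LOC_Os02g32660 and AGPS2, a small subunit of ADP-glucose pyrophosphorylase, with means of 2249, 1432 and 1520 RPKM. The plastidial phosphorylase and the ADP-glucose carrier were among the most abundant transcripts of the seed, and the 2 disproportionating enzymes and PHO2 were not. Of the neighbours in this order, DPE2 and PHO2 overlapped in their library values in P1MH and in WT, and not in P3MH. PHO1 and BT1 overlapped in P1MH, and not in P3MH or WT.

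**Figure D1:**
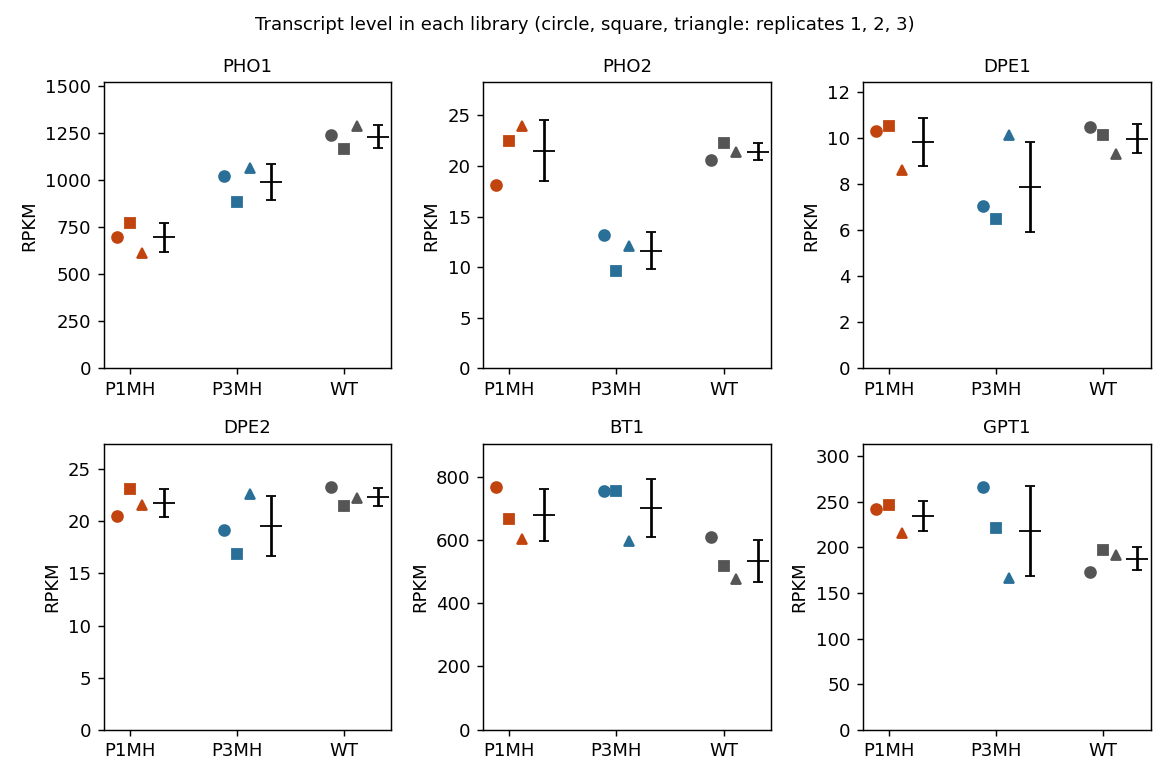
RPKM of each gene in each library, by genotype. Points are libraries, and the bar beside them is the mean with the SD of 3 libraries. By RPKM, PHO1 did not overlap between genotypes, lowest in P1MH (614 to 772 RPKM), then P3MH, then WT (1163 to 1286 RPKM). P3MH lay below WT in this way for 20.6% of genes tested, and P1MH below P3MH for 6.47%. Neither of these 2 PHO1 differences passed the test (limma adjusted p = 0.315 and 0.262). PHO2 was low only in the 3 P3MH libraries (9.65 to 13.1 RPKM).

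Libraries held 5865007 to 7498434 reads, a total read back from the step size of low RPKM values. The 6 genes were covered by 11438 to 26000 reads (PHO1), 5861.5 to 8486 (BT1), 2146 to 3135 (GPT1), 355 to 581 (DPE2), 198 to 565 (PHO2) and 83 to 161 (DPE1) per library. Counting alone therefore gives an error of at most 0.935% for a PHO1 value and of 7.88 to 11.0% for a DPE1 value. Reads were recovered as whole numbers for the mutants and in steps of 0.5 read for WT. Only WT values could therefore lie between whole reads, and 7 of the 18 did. Mutant values were not fitted on the WT step, so this is not a comparison of genotypes. The part of the WT steps in the comparisons with WT was not tested. The 10 highest genes took 37.8 to 39.6% of all RPKM in P1MH, 33.7 to 37.2% in P3MH and 30.9 to 33.9% in WT. The summed RPKM of 5 endosperm markers was 82862 to 86190 in P1MH, 65933 to 82040 in P3MH and 57780 to 61277 in WT. For 8 embryo and aleurone markers it was 1199 to 1826, 915 to 1211 and 640 to 993 RPKM, with RAB16D at 0 in every P1MH library and in some libraries of the other genotypes, and RAB16C at 0 in some P3MH libraries. For 4 markers of green tissue it was 241 to 346, 254 to 355 and 299 to 349 RPKM. Of these lists 2 of 5, 5 of 7 and 0 of 4 tested genes rose in P1MH, and 0 of 5, 0 of 7 and 2 of 4 fell. In P3MH 1 green tissue gene fell. Of all 16064 genes tested, 511 passed as higher and 905 as lower in P1MH, and 498 as lower in P3MH. The endosperm list held the glutelin loci LOC_Os01g55690, LOC_Os10g26060 and LOC_Os02g15169, with GBSSI and LOC_Os02g32660. Their log2 fold changes in P1MH were 0.69, 0.71, 0.39, 0.23 and -0.05, of which the first 2 passed. GBSSI and LOC_Os02g32660 were a small part of the sum, with means of 711 and 1360 RPKM in P1MH and 604 and 1400 RPKM in WT. The part of tissue make-up in the results below was not tested. In bulk RNA, fewer cells of a type and less RNA per cell cannot be told apart.

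PHO1 (LOC_Os03g55090, chromosome 3, 31332396 to 31339163, minus strand in the coordinates of the deposited table) fell in P1MH. It was 697, 772 and 614 RPKM in P1MH, against 1237, 1163 and 1286 RPKM in WT. The highest P1MH library was below the lowest WT library, as it was for 21.5% of the genes tested. The means were 694 ± 78.9 RPKM in P1MH and 1229 ± 61.6 RPKM in WT (SD, n = 3 each). The log2 fold change, on the scale log2(RPKM + 1) used throughout, was -0.83 (SE 0.17, 95% interval -1.19 to -0.46, limma adjusted p = 0.00925), a level of 0.564 times that of WT. PHO1 was the only one of the 6 genes to pass the test in this comparison, where 8.81% of the 16064 genes tested passed and 5.63% passed as lower. Its fold change was lower than that of all but 3.88% of the genes tested. The call was lost under quantile normalization (log2 fold change -0.46, limma adjusted p = 0.199), which gives every library the same distribution of values. It held under the other 3 rescalings of the libraries, where the fold change was -0.71, -0.72 and -0.69.

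In P3MH, PHO1 was 1021, 881 and 1061 RPKM, a mean of 988 ± 94.6 RPKM, against 1229 ± 61.6 RPKM in WT (SD, n = 3 each). All 3 P3MH libraries lay below the 3 WT libraries. With a log2 fold change of -0.32 it did not pass the test (95% interval -0.68 to 0.05, limma adjusted p = 0.315), and the fold change was -0.16, -0.094, -0.16 and -0.23 under median-ratio, quantile and upper-quartile rescaling and scaling without the 50 highest genes. By order among all loci, where 1 is the highest, PHO1 was 37th to 48th in P3MH and 38th to 42nd in WT, so on that scale the 2 overlapped. P1MH, at 43rd to 54th, did not overlap WT and did overlap P3MH. On that scale P1MH and WT did not overlap for 15.0% of genes tested in 1 direction and 14.1% in the other. By RPKM, libraries of P3MH and WT did not overlap, in either direction, for 27.6% of all genes tested, and P3MH was the lower one for 20.6%. Between the mutants all 3 P1MH libraries lay below the 3 of P3MH by RPKM, as they did for 6.47% of genes tested, and the mutants did not overlap in either direction for 15.3%. P1MH against P3MH gave a log2 fold change of -0.51 (95% interval -0.87 to -0.15), which did not pass over all genes (limma adjusted p = 0.262).

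PHO2 (LOC_Os01g63270, chromosome 1, 36670221 to 36676478, minus strand) fell in P3MH. It was 13.1, 9.65 and 12.1 RPKM in P3MH, against 20.6, 22.3 and 21.4 RPKM in WT. The WT libraries were close together. Every P3MH library was below all of them, as was the case for 20.6% of the genes tested. The means were 11.6 ± 1.79 RPKM in P3MH and 21.4 ± 0.834 RPKM in WT (SD, n = 3 each), with a log2 fold change of -0.84 (SE 0.15, 95% interval -1.16 to -0.51, limma adjusted p = 0.00617). On the scale of RPKM + 1 this is 0.560 times the WT level, and 3.04% of the genes tested had a lower fold change. With a pseudocount of 0.1 in place of 1 the log2 fold change was -0.88. PHO2 was the only one of the 6 to pass in P3MH, where 4.77% of all genes tested passed and 3.1% passed as lower. The call held under each of the 19 alternative settings tried.

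P1MH had 18.1, 22.4 and 24.0 RPKM of PHO2, which surrounded the WT values. The means were 21.5 ± 3.02 RPKM in P1MH and 21.4 ± 0.834 RPKM in WT (SD, n = 3 each), and the 95% interval of the log2 fold change was -0.33 to 0.32 (limma adjusted p = 0.997). Set directly against P3MH, PHO2 was higher in all 3 P1MH libraries, as were 8.81% of genes tested. Its log2 fold change was 0.83 (95% interval 0.51 to 1.16) and its p-value was the 18th smallest of 16064, yet it did not pass (limma adjusted p = 0.0834). Without P1MH replicate 3 it did, at 0.76 (limma adjusted p = 0.0465). By limma 5 genes (0.0311%) passed between the mutants and 0 of the 6 were among them, while 2054 genes had an unadjusted p under 0.05. With 1 library left out the count of 5 became 0 to 242, the 242 being without P1MH replicate 3.

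**Figure D2:**
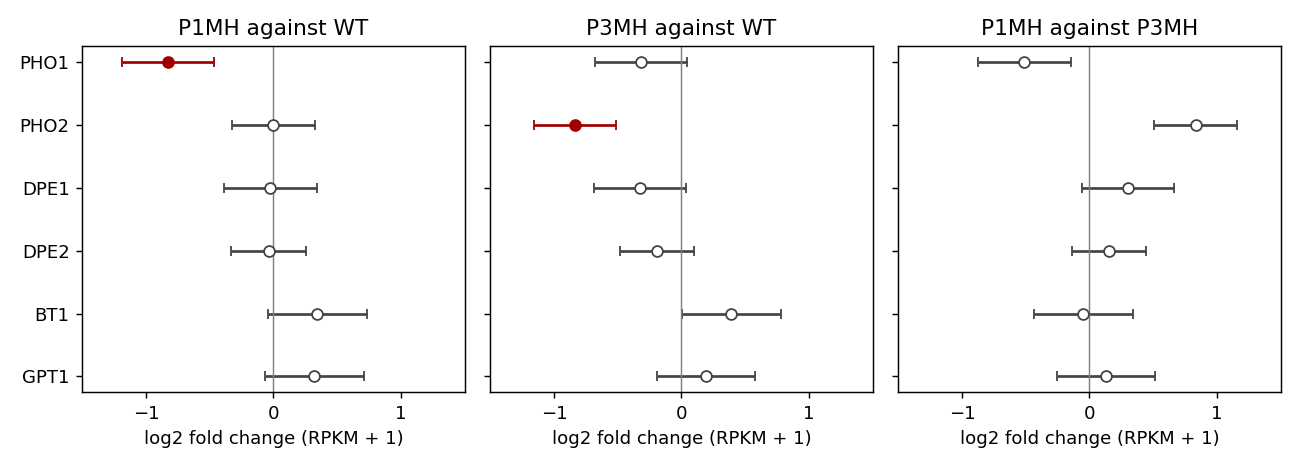
Log2 fold change of each gene in P1MH against WT, P3MH against WT and P1MH against P3MH, with 95% intervals from limma. Filled points passed at an adjusted p of 0.05, which were PHO1 in P1MH (-0.83) and PHO2 in P3MH (-0.84).

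The ratio of the 2 phosphorylases within a library does not depend on a factor applied to a whole library. PHO1/PHO2 was 38.5, 34.4 and 25.6 in P1MH, 77.8, 91.3 and 87.5 in P3MH, and 60.1, 52.3 and 60.2 in WT. The 3 genotypes did not overlap, with P1MH lowest, WT between and P3MH highest. The means were 32.8 ± 6.55 in P1MH, 85.6 ± 6.98 in P3MH and 57.5 ± 4.53 in WT (SD, n = 3 each). On the log2 scale the ratio differed by -0.83 between P1MH and WT, by 0.57 between P3MH and WT, and by -1.40 between P1MH and P3MH. A two-sided exact permutation test gave p = 0.1 for each, the smallest value that 3 libraries against 3 allow, and 0.24 after Benjamini-Hochberg adjustment over the 12 ratio tests made. Quantile normalization, which is not such a factor, gave -0.59, 0.67 and -1.26, and the genotypes still did not overlap. Single genes did not overlap in either direction for 31.2% (P1MH against WT), 27.6% (P3MH against WT) and 15.3% (P1MH against P3MH) of those tested. How often ratios of other gene pairs separate the genotypes was not counted, for this ratio or for those below.

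PHO1 relative to its partner DPE1 behaved otherwise. The ratio PHO1/DPE1 was 67.5, 73.2 and 71.2 in P1MH, 144, 136 and 105 in P3MH, and 118, 115 and 138 in WT. It was low in the 3 P1MH libraries alone, while P3MH and WT overlapped. The log2 difference was -0.80 for P1MH against WT and -0.85 for P1MH against P3MH (exact permutation p = 0.1 for each, adjusted 0.24), and 0.05 for P3MH against WT (exact permutation p = 0.9). Under quantile normalization these were -0.53, -0.65 and 0.13. DPE1/DPE2 averaged 0.453 ± 0.0518 in P1MH, 0.400 ± 0.0413 in P3MH and 0.448 ± 0.0265 in WT (SD, n = 3 each). BT1/GPT1 averaged 2.89 ± 0.238, 3.27 ± 0.381 and 2.87 ± 0.560 in the same order. These last 2 ratios overlapped between all genotypes (exact permutation p from 0.2 to 0.9).

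**Figure D3:**
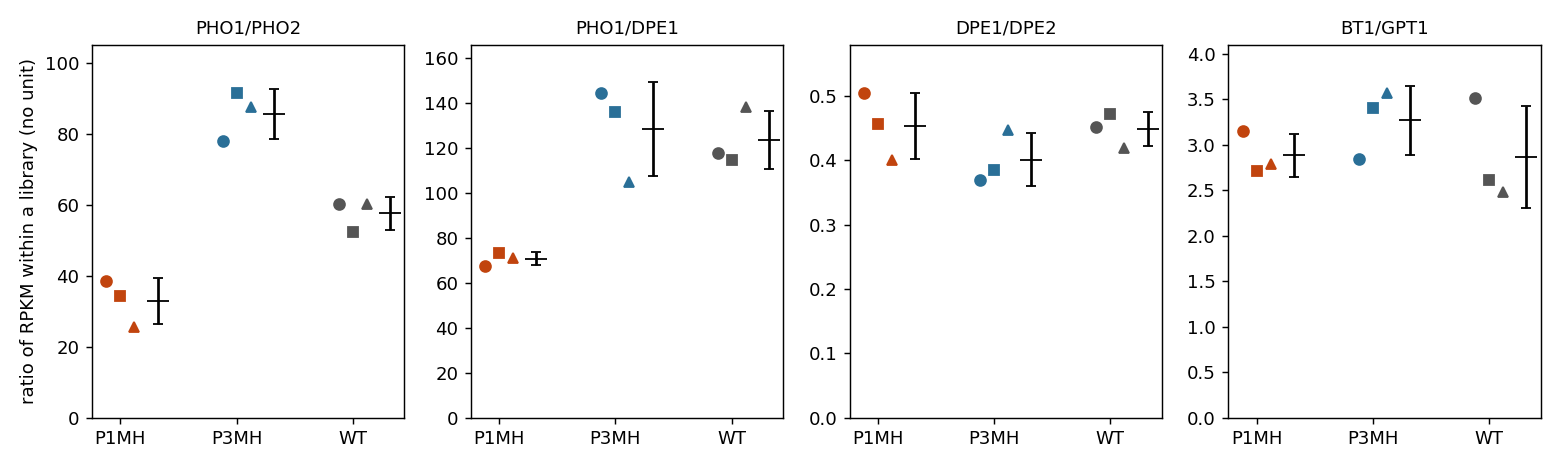
Ratios of RPKM within each library, by genotype, with the mean and SD of 3 libraries. PHO1/PHO2 separated the genotypes, at 25.6 to 38.5 in P1MH, 77.8 to 91.3 in P3MH and 52.3 to 60.2 in WT, and PHO1/DPE1 separated P1MH from the others.

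The disproportionating enzymes passed no test. DPE1 (LOC_Os07g43390, chromosome 7, 25980425 to 25984955, plus strand) was 10.3, 10.5 and 8.63 RPKM in P1MH, against 10.5, 10.2 and 9.32 RPKM in WT. The values intermingled, with a log2 fold change of -0.02 (95% interval -0.39 to 0.34, limma adjusted p = 0.948). In P3MH it was 7.08, 6.48 and 10.1 RPKM, so replicates 1 and 2 were below all WT libraries and replicate 3 was among them. In P3MH the log2 fold change was -0.33 (95% interval -0.69 to 0.04, limma adjusted p = 0.303), and -0.50 without P3MH replicate 3 (limma adjusted p = 0.101). Under the 4 rescalings it was -0.25 to -0.18. DPE2 (LOC_Os07g46790, chromosome 7, 27960440 to 27968017, plus strand) showed the same arrangement. It was 20.5, 23.1 and 21.6 RPKM in P1MH and 19.2, 16.8 and 22.6 RPKM in P3MH, against 23.3, 21.5 and 22.2 RPKM in WT. P3MH replicate 3 was again within the WT range and replicates 1 and 2 below it. Its log2 fold change was -0.04 in P1MH (95% interval -0.33 to 0.26, limma adjusted p = 0.897) and -0.19 in P3MH (95% interval -0.49 to 0.10, limma adjusted p = 0.464). The P3MH value was -0.11 to -0.038 under the 4 rescalings, -0.095 without P3MH replicate 2 and -0.30 without P3MH replicate 3. Between P1MH and P3MH, DPE1 differed by 0.30 and DPE2 by 0.15 (limma adjusted p = 0.487 and 0.681). The sign of the small P1MH differences from WT turned positive under all 4 rescalings, for DPE1, DPE2 and PHO2 alike.

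Both transporters stood higher in the mutants than in WT on average, and neither passed the test. BT1 (LOC_Os02g10800, chromosome 2, 5736604 to 5738853, plus strand) was 766, 667 and 602 RPKM in P1MH and 755, 754 and 595 RPKM in P3MH, against 608, 516 and 477 RPKM in WT. In each mutant, replicate 3 fell within the WT range and the other 2 libraries lay above it. By order among all loci BT1 was 48th to 52nd in P1MH, 49th to 57th in P3MH and 60th to 73rd in WT, so neither mutant overlapped WT. On that scale 15.0% and 14.1% of genes tested did not overlap in the 2 directions in P1MH, and 12.5% and 11.3% in P3MH. Log2 fold changes were 0.35 in P1MH (95% interval -0.04 to 0.73, limma adjusted p = 0.259) and 0.39 in P3MH (95% interval 0.00 to 0.78, limma adjusted p = 0.248). Over the 19 alternative settings they ranged from 0.25 to 0.57 in P1MH and from 0.31 to 0.55 in P3MH, with no call (smallest limma adjusted p = 0.0563 and 0.108). GPT1 (LOC_Os08g08840, chromosome 8, 5139637 to 5143709, plus strand) was 243, 246 and 216 RPKM in P1MH, against 173, 198 and 192 RPKM in WT. All 3 P1MH libraries were above WT, as they were for 9.7% of all genes tested, and the 2 genotypes did not overlap in either direction for 31.2%. Here the log2 fold change was 0.32 (95% interval -0.06 to 0.71, limma adjusted p = 0.290), and 0.27 to 0.50 over the 19 alternative settings. P3MH libraries were spread widely, at 266, 222 and 167 RPKM, from above to below all WT libraries (log2 fold change 0.19, limma adjusted p = 0.585). That value was 0.038 without P3MH replicate 1, 0.37 without P3MH replicate 3, and 0.23 to 0.35 under the 4 rescalings. P1MH and P3MH differed by -0.05 for BT1 and 0.13 for GPT1 (limma adjusted p = 0.946 and 0.810).

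P3MH replicate 3 was the highest P3MH library for PHO1, DPE1 and DPE2 and the lowest for BT1 and GPT1. For DPE1 the SD was 24.8% of the mean in P3MH and 6.16% in WT, and for GPT1 it was 22.8% in P3MH and 6.87% in WT. The counting error of a value is at most 11.0% for DPE1 and 2.16% for GPT1.

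As a share of the summed RPKM of the 28 starch genes, PHO1 made up 7.79 ± 0.488% in P1MH, 9.60 ± 0.955% in P3MH and 12.2 ± 1.05% in WT (SD, n = 3 each). The 3 genotypes did not overlap, at 7.31 to 8.28%, 8.72 to 10.6% and 11.5 to 13.4%. BT1 had a larger share in the mutants, at 7.67 ± 1.26% in P1MH, 6.81 ± 0.776% in P3MH and 5.29 ± 0.327% in WT, and every mutant library was above every WT library, whereas by RPKM replicate 3 of each mutant was inside the WT range. By this measure 8 of the 28 genes stood higher than WT without overlap in P1MH and 3 of the 28 in P3MH, against 5 and 7 that stood lower. Between the mutants, 10 of the 28 stood higher without overlap in P1MH and 3 stood lower. GPT1 was 2.65 ± 0.211%, 2.11 ± 0.406% and 1.87 ± 0.232% in the same order, with the P1MH libraries all above WT. PHO2 was 0.242 ± 0.0374% in P1MH, 0.113 ± 0.0150% in P3MH and 0.213 ± 0.0195% in WT. The 6 genes together held 18.7 ± 1.86% in P1MH, 18.9 ± 0.354% in P3MH and 19.9 ± 0.929% in WT. PHO1 exceeded BT1 in every WT library and in every P3MH library, and in P1MH only in replicates 2 and 3. These shares carry no test, and a share can differ because other genes of the 28 do.

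Among the 22 other starch synthesis genes tested, 0 rose and 2 fell in P1MH. There 511 of all 16064 genes tested passed as higher and 5.63% passed as lower. LOC_Os03g52460 was 60.0 ± 2.67 RPKM in P1MH and 96.8 ± 2.05 RPKM in WT (SD, n = 3 each), with a log2 fold change of -0.68 (limma adjusted p = 0.00537), and this call held in all 19 alternative settings. LOC_Os04g33460 was 49.5 ± 9.78 RPKM in P1MH and 79.5 ± 17.0 RPKM in WT (log2 fold change -0.67, limma adjusted p = 0.0489), and its call held in 3 of the 19. Of the 22 fold changes 18 were below 0 and 13 below the median of all genes. Their median log2 fold change was -0.15, beside -0.10 for all genes tested. In P3MH none of the 22 passed, where 4.77% of all genes tested did. Their median there was -0.06, beside -0.13 for all genes. Between P1MH and P3MH none passed either, with a median of -0.12 beside 0.02. Of 3 genes of starch breakdown and sugar export from plastids, MEX1 (the maltose exporter) and 2 others, none passed in any of the 3 comparisons. MEX1 had a log2 fold change of -0.34 in P1MH (limma adjusted p = 0.410). The comparisons with WT share the WT libraries.

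**Figure D4:**
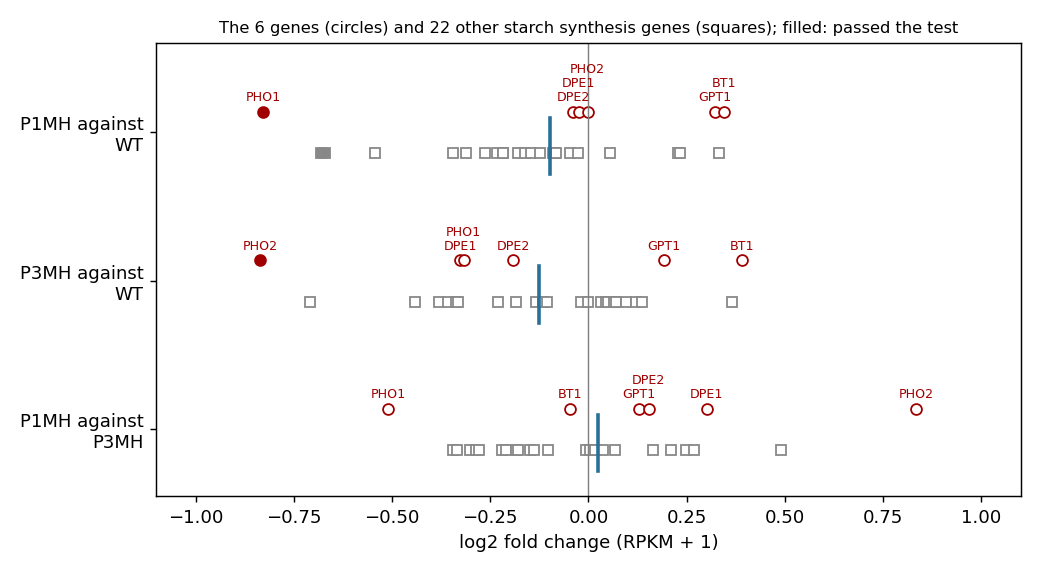
Log2 fold changes of the 6 genes (circles, named) and of 22 other starch synthesis genes (squares) in the 3 comparisons. Filled symbols passed at an adjusted p of 0.05 and the vertical blue bar is the median of all 16064 genes tested. PHO1 in P1MH (-0.83) and PHO2 in P3MH (-0.84) lie below every one of the 22.

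Across the genome 511 genes were called higher and 905 lower in P1MH, and 268 higher and 498 lower in P3MH. Median-ratio rescaling, which brings the median gene to about 0, gave 659 higher and 566 lower in P1MH and 408 and 326 in P3MH. On that scale PHO1 in P1MH remained called at -0.71 (limma adjusted p = 0.0192) and PHO2 in P3MH at -0.69 (limma adjusted p = 0.0156).

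**Figure D5:**
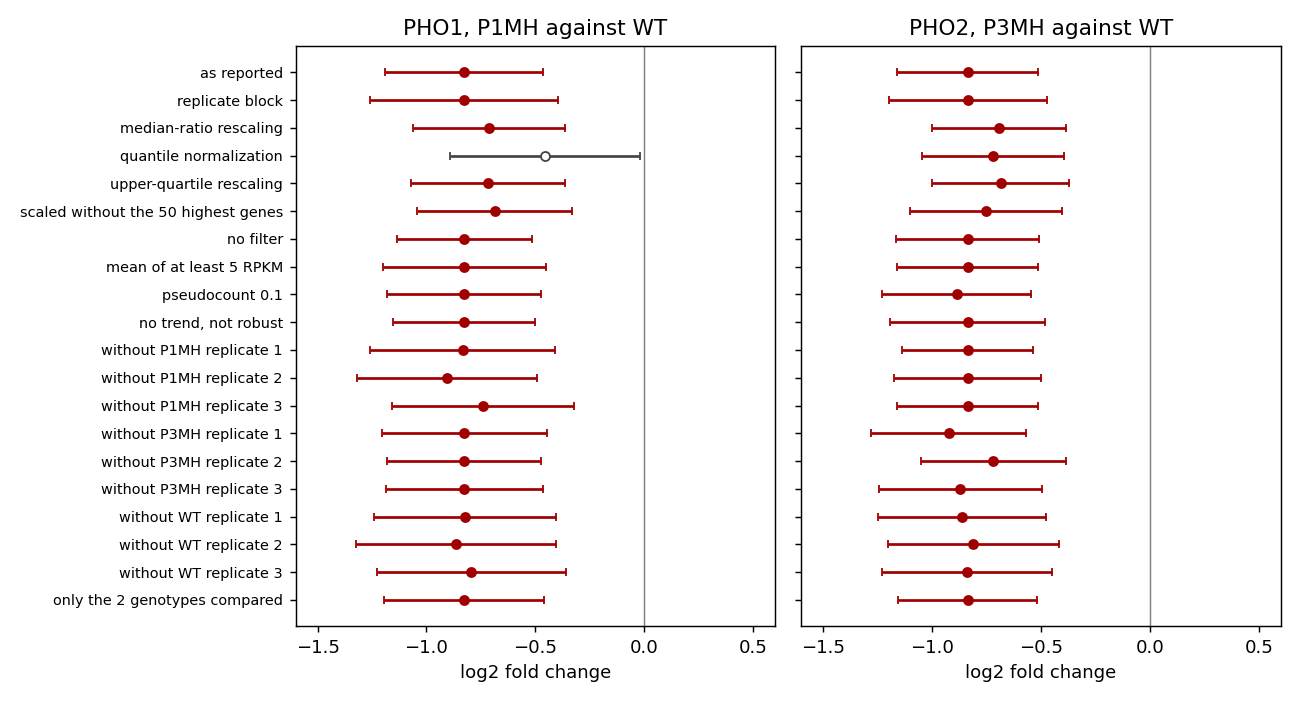
Log2 fold change with 95% interval of PHO1 in P1MH against WT (left) and of PHO2 in P3MH against WT (right), as reported and under 19 alternative settings. Filled points passed at an adjusted p of 0.05. PHO1 missed it under quantile normalization (-0.46), and PHO2 passed in all, between -0.92 and -0.68.

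The starch genes whose log2(RPKM + 1) followed each member most closely over the 9 libraries were looked up among the other 27. For PHO1 these were LOC_Os03g52460 (Pearson r = 0.95, Spearman rho = 0.93) and LOC_Os09g12660 (r = 0.83, rho = 0.87). After each genotype's mean was subtracted, the r of these pairs was 0.48 and 0.62. DPE1 and DPE2 followed each other (r = 0.88, rho = 0.72), and did so within genotypes as well (r = 0.81 after subtraction). DPE1 was closest to LOC_Os05g50380 (r = 0.91, and 0.85 after subtraction) and DPE2 to LOC_Os09g29404 (r = 0.91, and 0.86 after subtraction). PHO2 was closest to DPE2 (r = 0.71, rho = 0.43, and 0.55 after subtraction), with LOC_Os09g29404 next (r = 0.68, rho = 0.38, and 0.20 after subtraction). BT1 was closest to GPT1 (r = 0.67, rho = 0.73, and 0.52 after subtraction), with LOC_Os08g09230 next (r = 0.64, and -0.02 after subtraction). GPT1 was closest to LOC_Os01g52250 (r = 0.70, and 0.47 after subtraction), then to BT1. The 9 points share genotype and library scaling, and the pairs were the closest of 27, so these values are descriptions.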

How the data were processed

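RPKM values of 55986 loci in 9 libraries were deposited by the authors in 1 table, per the file headers. Per the labels' protocols, the library kit was ScriptSeq v2. No aligner, counter or build is stated (not given in the sources used here). All columns of per-sample values were used, and 0 were left out. The reads behind each value were worked out from the step size of low RPKM values (tolerance 0.001 read). WT was fitted in steps of 0.5 read and the mutants in whole reads, a choice made after seeing the data. The smallest fitting exon length of at least 100 bp was taken, so recovered reads may be too low. In WT replicate 3 the doubled total fitted as well. Its total of 7083493.5 reads was set by comparing 1-read values with those of P1MH replicate 1, also after seeing the data, and its reads for PHO1 (26000) and BT1 (5861.5) rest on this.

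The 16064 genes averaging 1 RPKM or more were tested on log2(RPKM + 1) with limma 3.58.1 in R 4.3.3 (trend and robust options on). Fold changes of weakly expressed genes come out too small in this form. A single fit held all 9 libraries, with a coefficient for each genotype. Benjamini-Hochberg adjustment at 0.05 was made within each of the 3 comparisons. Within-library ratios were compared by exact two-sided permutation tests. Shares, ranks and figures used Python 3.11.15 (pandas 2.3.3, numpy 2.4.6, matplotlib 3.10.9). Errors from read numbers cover counting alone, since no molecular identifiers are recorded. Alternatives were the replicate block, 4 rescalings, other filters, another pseudocount, other limma options, fits of 2 genotypes and each library left out.

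The members and all lists were chosen with earlier results of these data known. Named genes were the 6 members, other starch genes that passed, the 3 highest of these, and for each member the 2 most alike. Names were checked against RefSeq (assembly ASM3414082v1) by chromosome, a span of 0.8 to 1.25 times that deposited, and order. Genes without a checked name are given by locus. Of 23 other starch loci 22 were found, and 1 was not analysed here.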

Additional observations from a re-analysis of the deposited data

Results flagged for a closer look

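The log2 ratio PHO1/PHO2 differed by -1.40 between P1MH and P3MH. It is given here because the 2 mutants departed from WT in opposite ways: every P1MH library had a lower ratio than all WT libraries and every P3MH library a higher one. How many other gene pairs do so was not counted. The linear ratio averaged 32.8 ± 6.55 in P1MH, 85.6 ± 6.98 in P3MH and 57.5 ± 4.53 in WT (SD, n = 3 each). Leaving out each library in turn gave -1.52 to -1.23. The difference between the mutants has an exact two-sided permutation p of 0.1, which is the smallest that 3 libraries against 3 can give, so the design could not have passed 0.05. The ratio rests on PHO1 in P1MH and on PHO2 in P3MH, the same values as in the comparisons with WT.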

How the results depend on the processing

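Over 19 alternative settings, 317 of 342 fold changes of the 6 genes kept their direction and their side of the threshold. The call of PHO1 in P1MH was lost under quantile normalization, which left 0 of the 6 genes called, and the cause was not tested. With libraries left out in turn it held, at -0.91 to -0.74 (limma adjusted p = 0.00978 to 0.0484), and PHO2 in P3MH held at -0.92 to -0.72 (limma adjusted p = 0.00398 to 0.0398). Between the mutants, 0 to 1 of the 6 genes passed with libraries left out, the 1 being PHO2 without P1MH replicate 3 (0.76), and its value ranged from 0.72 to 0.95.

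With libraries left out, genes called over the whole table numbered 608 to 1464 in P1MH (910, 708 and 608 without WT replicates 1, 2 and 3) and 344 to 903 in P3MH (437, 378 and 344 without these, and 444 without P3MH replicate 2). Between the mutants they numbered 0 to 242, with 0 without P1MH replicate 1 or P3MH replicate 1 or 2, 1 without P3MH replicate 3 or WT replicate 2, 2 without WT replicate 3, 9 without P1MH replicate 2 and 242 without P1MH replicate 3. A mean of at least 5 RPKM gave 436 in P3MH. Between the mutants the count was 11 when scaled without the 50 highest genes, 0 with no filter (2854 with an unadjusted p under 0.05), 2 with a pseudocount of 0.1, 3 without trend and robust moderation, and 3 with only the 2 genotypes compared.

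Directions turned for 5 fold changes near 0, none of them called (smallest limma adjusted p = 0.68). Under median-ratio, quantile and upper-quartile rescaling and scaling without the 50 highest genes, P1MH against WT became 0.11, 0.13, 0.10 and 0.13 for PHO2, 0.079, 0.062, 0.074 and 0.10 for DPE1, and 0.071, 0.086, 0.066 and 0.096 for DPE2. With libraries left out they ranged from -0.080 to 0.11, -0.073 to 0.058 and -0.083 to 0.0011. P1MH against P3MH became 0.10 for BT1 under quantile normalization and 0.0049 in the scaling without the 50 highest genes. With libraries left out it ranged from -0.16 to 0.036 for BT1 and from -0.051 to 0.28 for GPT1. The 72 ratio values with a library left out moved by less than 1 SD, pooled over the 2 genotypes compared. With 3 libraries per genotype a larger move is not possible, so this is no check of stability. With a library left out, 3 of the 12 ratio differences changed sign, all near 0. These were DPE1/DPE2 in P1MH against WT (-0.067 to 0.099), PHO1/DPE1 in P3MH against WT (-0.042 to 0.19) and BT1/GPT1 in P1MH against WT (-0.073 to 0.18). Quantile normalization of the ratios, chosen after seeing the data, moved 3 of the 12 by more than that SD: PHO1/PHO2 in P1MH against WT to -0.59, and PHO1/DPE1 to -0.53 in P1MH against WT and -0.65 between the mutants. It also turned DPE1/DPE2 in P1MH against WT to -0.022.

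With the replicate block, PHO1 in P1MH had a limma adjusted p of 0.0285 and PHO2 in P3MH one of 0.0158, and 1178, 650 and 5 genes were called in P1MH, in P3MH and between the mutants. Libraries of the same number correlated at -0.31 to 0.11 in their deviations from the genotype means and those of different numbers at -0.21 to 0.30, so the numbers do not pair the samples. The call of LOC_Os04g33460 was recomputed under the same settings, a choice made after seeing the data, and its adjusted p ranged from 0.0302 to 0.178. Depth limits DPE1 most, with 83 to 161 reads.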
